A study of Mus musculus with 10 samples.

Results

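The expression of 10 enzyme genes that make serine, glycine, proline, asparagine and one-carbon units was described in normal and tumorous mouse liver. The genes were chosen by name: Phgdh, Psat1 and Psph of serine synthesis, Shmt1, Shmt2, Mthfd2 and Mthfd1l of glycine and folate metabolism, Aldh18a1 and Pycr1 of proline synthesis, and Asns of asparagine synthesis. Each symbol matched a single row among the 16697 gene entries of the expression table, so that all 10 were found. RNA was sequenced in bulk from 4 normal livers (NL), 3 liver tumours that arose from injected c-MYC (the c-MYC group) and 3 that arose from c-MYC plus FOXO1AAA (the c-MYC/FOXO1AAA group). The study set these groups side by side to ask how activated FOXO1 alters the molecular features of c-MYC tumours. c-MYC is an oncogene, and FOXO1AAA is a mutant of the forkhead transcription factor FOXO1 that stays active.

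All 3 groups are labelled as wild type (WT). The tumours arose after plasmids were forced into hepatocytes through the tail vein (hydrodynamic injection), with a Sleeping Beauty transposase that inserts them into the genome. Both tumour groups therefore carry c-MYC, the c-MYC group with the empty pT3 vector and the c-MYC/FOXO1AAA group with pT3-FOXO1AAA in its place, each driven by the EF1α promoter and not by a liver promoter. The labels give the strain as C57BL/6, while the extraction notes and the methods name FVB mice, and strain entered no test. Age and the time since injection were not labelled for these samples. NL mice are not stated to have been injected, so that injection, transposition and tumour growth cannot be told apart in a comparison with NL. The methods give the group sizes as numbers of mice and normal livers, while the labels tie no library to an animal.

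Cells draw serine either from the blood or from the glycolytic intermediate 3-phosphoglycerate, which Phgdh, Psat1 and Psph convert to serine in turn. Shmt1 in the cytosol and Shmt2 in mitochondria then pass a carbon from serine to folate, leaving glycine, and Mthfd2 and Mthfd1l carry that carbon on to formate, which feeds the synthesis of purines and thymidylate. Aldh18a1 and Pycr1 turn glutamate into proline, and Asns turns aspartate into asparagine. The transcription factors MYC and ATF4 are known to drive many of these genes in growing or amino acid-starved cells, whereas normal liver is better known for breaking serine, glycine and proline down.

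Stretches of 250 bases just before the RefSeq start sites (mouse build GRCm38.p6) were searched on both strands for 3 short motifs: CACGTG (the E-box to which MYC and MAX bind, which reads the same on both strands), TGATGNAA (the core of the amino acid response element, to which ATF4 binds) and GTAAACA (to which forkhead factors such as FOXO1 bind). The motifs share no stretch in the windows found. All 10 genes had a window, and Psat1 had a second, which makes 11. CACGTG was present only before Aldh18a1, against 6.02% of all 32851 windows and 7.96% of the 14980 windows of genes in the expression table. TGATGNAA was present before Asns and Pycr1, against 3.45% and 2.16% of the same windows. GTAAACA was present in 0 of the 11 windows, against 3.17% and 2.54%. The windows of Asns (chr6:7693210-7693459), Pycr1 (chr11:120643749-120643998) and Aldh18a1 (chr19:40588464-40588713) are shown because they hold a match, and that of Phgdh (chr3:98339970-98340219) because Phgdh was the most abundant of the genes in c-MYC tumours and held none. All 4 lie on the minus strand, read 5′ to 3′ towards the gene, and capitals mark the matched motif, which lies 23 to 16 bases before the start of Asns, 103 to 96 before that of Pycr1 and 59 to 54 before that of Aldh18a1.
Asns: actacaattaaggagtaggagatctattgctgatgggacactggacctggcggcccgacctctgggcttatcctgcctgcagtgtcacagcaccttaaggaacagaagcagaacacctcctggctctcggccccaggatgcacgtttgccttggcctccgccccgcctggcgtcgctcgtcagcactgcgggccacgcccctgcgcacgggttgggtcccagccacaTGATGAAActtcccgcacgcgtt
Pycr1: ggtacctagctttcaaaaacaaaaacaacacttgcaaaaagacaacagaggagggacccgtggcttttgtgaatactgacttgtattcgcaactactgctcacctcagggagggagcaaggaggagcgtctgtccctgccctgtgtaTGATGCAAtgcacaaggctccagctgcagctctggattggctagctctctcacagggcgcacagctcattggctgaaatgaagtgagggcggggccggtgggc
Aldh18a1: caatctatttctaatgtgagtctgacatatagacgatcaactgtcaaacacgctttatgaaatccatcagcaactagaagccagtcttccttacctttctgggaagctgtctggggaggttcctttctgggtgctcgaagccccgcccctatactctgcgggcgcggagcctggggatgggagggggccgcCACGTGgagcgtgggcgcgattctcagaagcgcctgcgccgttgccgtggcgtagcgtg
Phgdh: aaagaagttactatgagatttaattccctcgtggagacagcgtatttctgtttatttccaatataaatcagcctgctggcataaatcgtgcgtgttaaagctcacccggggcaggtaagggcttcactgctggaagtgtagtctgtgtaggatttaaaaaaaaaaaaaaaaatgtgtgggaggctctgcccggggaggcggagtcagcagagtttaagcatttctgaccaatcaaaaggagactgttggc
A match in these letters is a description of the sequence, and binding was not measured.

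Whole reads could be recovered from the deposited values for all 10 genes, and the libraries held between 12714125 and 19960032 recovered reads. Levels are given as FPKM (fragments scaled to the length of the transcript and to a library size). This unit allows genes to be compared with each other, and the values still hold the small prior count that the authors added before taking the logarithm. The library size used was not the read depth alone. NL 3 and c-MYC 1 held similar totals of recovered reads. Shmt1 had 3212 reads in NL 3 and 6138 in c-MYC 1, yet was at 115 and 117 FPKM. Comparisons with NL therefore carry a scaling between libraries that was already in the deposited values. The source of this scaling was not tested. Foxo1, which checks the labels, was at 7.14 ± 0.532 FPKM in NL (SD, n = 4), 5.63 ± 0.721 in c-MYC (n = 3) and 83.1 ± 12.8 in c-MYC/FOXO1AAA (n = 3). The summed FPKM of 11 hepatocyte markers ran from 127000 to 137000 in NL, from 8610 to 12100 in c-MYC and from 1710 to 3460 in c-MYC/FOXO1AAA. In bulk tissue, fewer cells of a type and less RNA per cell cannot be told apart.

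Of the 10 genes, 8 rose in c-MYC tumours over NL and 0 fell: the 3 genes of serine synthesis, Mthfd2, Mthfd1l, Aldh18a1, Pycr1 and Asns. The rise ran from 8.18-fold for Psph to 46.3-fold for Psat1, while Shmt1 and Shmt2, the genes with the highest level in NL, did not pass the test. In c-MYC/FOXO1AAA tumours the same 8 genes rose over NL and Shmt1 fell. Between the tumours, Psph and Shmt1 fell in c-MYC/FOXO1AAA and 0 of the 10 genes rose. At an unadjusted limma p below 0.05 the counts were 8 higher and 0 lower for c-MYC against NL, and 0 higher and 2 lower between the tumours. The comparisons share libraries, so that their values are set side by side and not counted as independent. A gene was called changed when limma's test for a change above 1.5-fold (treat, 2-sided) gave a Benjamini-Hochberg adjusted p below 0.05 over the 14017 genes with at least 1 FPKM in at least 3 libraries. Of those 14017 genes, 48.1% were called in c-MYC versus NL and 24.5% were called higher. Lower calls made up 23.6%. The share called was 28.7% between the tumours, with 15.9% higher and 12.7% lower. It was 57.8% in c-MYC/FOXO1AAA versus NL, with 31.2% higher and 26.6% lower. Median log2 fold changes of the 10 genes in these comparisons were 3.97, -0.96 and 3.75, beside 0.08, 0.03 and 0.21 over all genes tested. Mthfd2, Aldh18a1 and Pycr1 reached the filter only through the tumour libraries, and 5 of the 8 genes that rose would have been tested on NL alone.

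**Figure D1:**
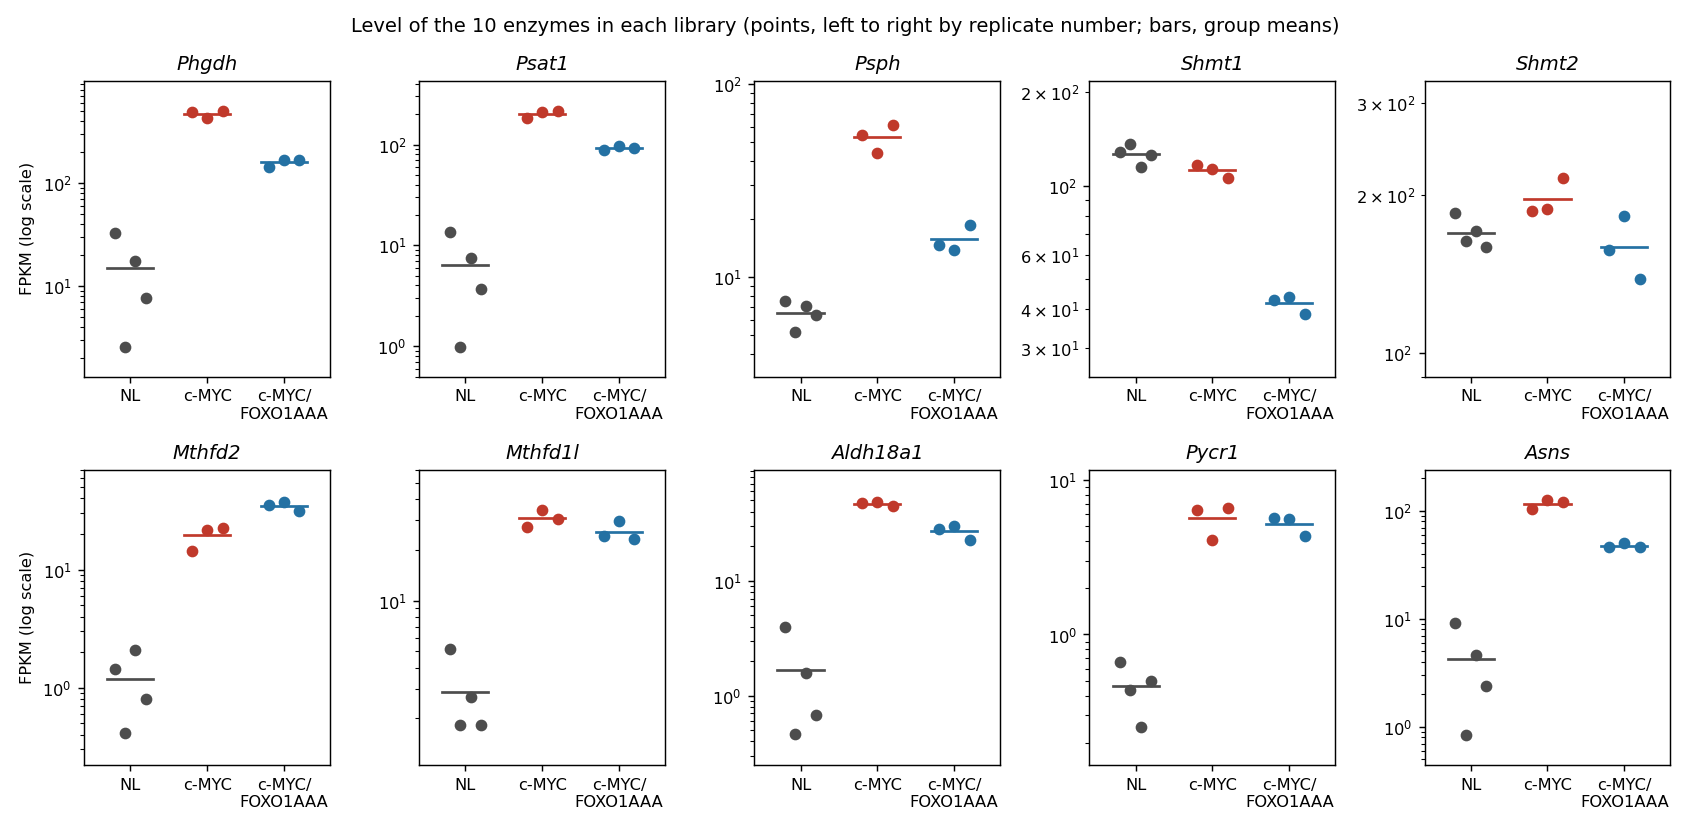
FPKM (log scale) of each of the 10 genes in every library, with NL in grey, c-MYC in red, c-MYC/FOXO1AAA in blue and bars at the group means. The NL points of Phgdh, Psat1, Aldh18a1 and Asns are spread over much of a log axis while the tumour points lie close together, and Shmt1 stands apart in being low in c-MYC/FOXO1AAA alone.

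Phgdh encodes the enzyme that commits 3-phosphoglycerate to serine (chr3:98313170-98339990, minus strand). It was at 32.5, 2.58, 17.4 and 7.71 FPKM in NL 1 to 4, at 481, 424 and 497 FPKM in c-MYC and at 142, 166 and 166 FPKM in c-MYC/FOXO1AAA. The 3 groups did not overlap, and the lowest c-MYC library stood 13-fold above the highest NL library. In c-MYC over NL, Phgdh rose by 5.50 on the log2 scale (SE 0.66, limma adjusted p = 6.3e-05) and by 3.94 in c-MYC/FOXO1AAA over NL (SE 0.66, limma adjusted p = 0.000666).

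Psat1 encodes the aminotransferase of the next step (chr19:15904678-15947337, minus strand). It was at 13.6, 0.978, 7.44 and 3.66 FPKM in NL 1 to 4, at 182, 209 and 217 FPKM in c-MYC and at 89.1, 97.7 and 93.4 FPKM in c-MYC/FOXO1AAA. As with Phgdh, each c-MYC library lay above each c-MYC/FOXO1AAA library, and all tumours lay above all NL libraries. The log2 fold change of Psat1 was 5.53 in c-MYC over NL (SE 0.69, limma adjusted p = 7.67e-05) and 4.42 in c-MYC/FOXO1AAA over NL (SE 0.69, limma adjusted p = 0.000339).

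Psph encodes the phosphatase that releases serine (chr5:129765558-129787449, minus strand). It was at 7.54, 5.15, 7.04 and 6.37 FPKM in NL 1 to 4, at 54.5, 44.2 and 61.3 FPKM in c-MYC and at 14.7, 13.8 and 18.5 FPKM in c-MYC/FOXO1AAA. Its NL libraries were tight, with a highest to lowest ratio of 1.46 against 12.6 for Phgdh and 14.0 for Psat1, and its c-MYC/FOXO1AAA libraries lay nearer to NL than to c-MYC. The log2 fold change of Psph was 3.03 in c-MYC over NL (SE 0.16, limma adjusted p = 2.45e-07) and 1.27 in c-MYC/FOXO1AAA over NL (SE 0.16, limma adjusted p = 0.00203). The summed level of the 3 serine synthesis genes was 28.0 ± 19.6 FPKM in NL (SD, n = 4), 724 ± 48.7 in c-MYC (n = 3) and 267 ± 18.6 in c-MYC/FOXO1AAA (n = 3).

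Shmt1 encodes the cytosolic enzyme that interconverts serine and glycine (chr11:60788104-60811718, minus strand). It was at 128, 136, 115 and 126 FPKM in NL 1 to 4, at 117, 113 and 106 FPKM in c-MYC and at 42.8, 44.0 and 38.8 FPKM in c-MYC/FOXO1AAA. NL and c-MYC overlapped, and all c-MYC/FOXO1AAA libraries lay below both. Shmt1 differed by -0.17 on the log2 scale between c-MYC and NL (95% interval -0.37 to 0.03, limma adjusted p = 1) and fell by 1.59 in c-MYC/FOXO1AAA below NL (SE 0.09, limma adjusted p = 1.27e-06).

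Shmt2 encodes its mitochondrial counterpart (chr10:127517123-127522444, minus strand). It was at 185, 163, 171 and 159 FPKM in NL 1 to 4, at 186, 188 and 215 FPKM in c-MYC and at 157, 182 and 138 FPKM in c-MYC/FOXO1AAA. Its level lay in nearly the same range in all groups: c-MYC stood just above NL, by less than 1 FPKM at the nearest libraries, and c-MYC/FOXO1AAA overlapped NL. The log2 difference of Shmt2 was 0.21 in c-MYC versus NL (95% interval -0.04 to 0.46) and -0.10 in c-MYC/FOXO1AAA versus NL (95% interval -0.35 to 0.15), with a limma adjusted p of 1 in both. The log2 values of Shmt1 and Shmt2 against NL depend on how libraries are scaled. With every library brought to the same FPKM total, the median of all genes moved to 1.01 in c-MYC versus NL and to 1.31 in c-MYC/FOXO1AAA versus NL. Shmt1 was then at 0.76 and -0.49 and Shmt2 at 1.14 and 1.0, and the fall of Shmt1 in c-MYC/FOXO1AAA no longer passed (limma adjusted p = 0.924). Of 23 alternatives, Shmt2 passed in 1 for each of these comparisons (lowest limma adjusted p = 0.000625 and 0.00342).

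Mthfd2 encodes the mitochondrial enzyme that oxidises the folate-bound carbon from serine, and is known as nearly silent in most adult tissues (chr6:83305691-83325908, minus strand). It was at 1.45, 0.413, 2.07 and 0.805 FPKM in NL 1 to 4, at 14.5, 21.7 and 22.6 FPKM in c-MYC and at 35.5, 37.3 and 31.1 FPKM in c-MYC/FOXO1AAA. It alone of the 10 genes was higher in every c-MYC/FOXO1AAA library than in every c-MYC library, and NL lay below both, on 7 to 41 recovered reads per library. Mthfd2 rose by 4.27 in c-MYC over NL (SE 0.45, limma adjusted p = 3.02e-05) and by 5.11 in c-MYC/FOXO1AAA over NL (SE 0.45, limma adjusted p = 4.57e-06), both on the log2 scale.

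Mthfd1l encodes the mitochondrial synthetase that releases formate (chr10:3973118-4167081, plus strand). It was at 5.19, 1.82, 2.67 and 1.82 FPKM in NL 1 to 4, at 27.5, 34.6 and 30.6 FPKM in c-MYC and at 24.3, 29.7 and 23.3 FPKM in c-MYC/FOXO1AAA. The tumour groups overlapped each other and lay above NL. The log2 fold change of Mthfd1l was 3.57 in c-MYC over NL (SE 0.32, limma adjusted p = 9.95e-06) and 3.30 in c-MYC/FOXO1AAA over NL (SE 0.32, limma adjusted p = 1.34e-05).

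Aldh18a1 encodes the enzyme that opens proline synthesis from glutamate (chr19:40550257-40588463, minus strand). It was at 4.00, 0.468, 1.56 and 0.685 FPKM in NL 1 to 4, at 47.1, 48.9 and 44.6 FPKM in c-MYC and at 28.3, 30 and 22.7 FPKM in c-MYC/FOXO1AAA. The groups were ordered as for Phgdh and did not overlap. The log2 fold change of Aldh18a1 was 5.30 in c-MYC over NL (SE 0.58, limma adjusted p = 3.27e-05) and 4.50 in c-MYC/FOXO1AAA over NL (SE 0.58, limma adjusted p = 8.98e-05).

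Pycr1 encodes a mitochondrial enzyme of the last step to proline (chr11:120635712-120643769, minus strand) and had the lowest mean of the 10 genes in each group. It was at 0.662, 0.441, 0.252 and 0.500 FPKM in NL 1 to 4, at 6.4, 4.08 and 6.56 FPKM in c-MYC and at 5.64, 5.58 and 4.35 FPKM in c-MYC/FOXO1AAA. The tumour groups overlapped each other and lay above NL, where 6 to 20 reads were recovered per library. The log2 fold change of Pycr1 was 3.67 in c-MYC over NL (SE 0.32, limma adjusted p = 6.64e-06) and 3.56 in c-MYC/FOXO1AAA over NL (SE 0.32, limma adjusted p = 5.68e-06), values that the prior count draws towards 0.

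Asns encodes asparagine synthetase, a textbook target of the amino acid response (chr6:7675169-7693254, minus strand). It was at 9.13, 0.848, 4.68 and 2.38 FPKM in NL 1 to 4, at 104, 125 and 121 FPKM in c-MYC and at 46.8, 50 and 46.4 FPKM in c-MYC/FOXO1AAA. All c-MYC libraries lay above all c-MYC/FOXO1AAA libraries, and these above NL. The log2 fold change of Asns was 5.26 in c-MYC over NL (SE 0.62, limma adjusted p = 5.25e-05) and 3.97 in c-MYC/FOXO1AAA over NL (SE 0.62, limma adjusted p = 0.000371).

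Counting libraries, c-MYC and NL did not overlap for 9 of the 10 genes, all higher in c-MYC, while 73.9% of all genes tested did not overlap and 39.0% were higher. In c-MYC/FOXO1AAA versus NL, 9 genes did not overlap, 8 higher and Shmt1 lower, against 80.1% of all genes, 44.1% higher and 36.0% lower.

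The order of the levels changed with the group. In NL, Shmt2 at 170 ± 11.7 FPKM and Shmt1 at 126 ± 8.47 FPKM (SD, n = 4) stood clear of each other and of the remaining 8 genes, of which each overlapped the next from Phgdh at 15.1 ± 13.2 to Pycr1 at 0.464 ± 0.169. In c-MYC, Phgdh came first at 467 ± 38.3 FPKM (n = 3). It was followed by Psat1 and Shmt2, by Asns and Shmt1 and by Psph and Aldh18a1, pairs whose members overlapped, and then by Mthfd1l, Mthfd2 and Pycr1, which did not overlap. In c-MYC/FOXO1AAA, Shmt2 at 159 ± 22.5 FPKM and Phgdh at 158 ± 14.0 FPKM (n = 3) overlapped at the top, and Mthfd2 had moved above Aldh18a1, Mthfd1l and Psph. The 10 genes summed to 334 ± 36.6, 1250 ± 60.5 and 608 ± 41.9 FPKM in NL, c-MYC and c-MYC/FOXO1AAA.

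Whether activated FOXO1 went with a different level of these genes in c-MYC tumours was asked by comparing the tumour groups. Psph fell 3.40-fold, by 1.77 on the log2 scale (SE 0.18, limma adjusted p = 0.000173), and Shmt1 fell 2.68-fold, by 1.42 (SE 0.10, limma adjusted p = 2.77e-05). Mean levels in c-MYC/FOXO1AAA were 33.8% of the c-MYC mean for Phgdh, 46.0% for Psat1, 40.8% for Asns and 57.6% for Aldh18a1, but these did not pass. Libraries did not overlap for 8 of the 10 genes, 7 of them lower in c-MYC/FOXO1AAA and Mthfd2 higher, while 63.4% of all genes did not overlap, 30.7% lower and 32.7% higher.

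For Phgdh the log2 difference between the tumours was -1.56 (SE 0.71, 95% interval -3.15 to 0.02, limma adjusted p = 0.284). The wide interval stems from a spread shared by all 10 libraries (residual SD 0.87 on the log2 scale), to which NL brought an SD of 1.58, c-MYC 0.12 and c-MYC/FOXO1AAA 0.13. When the tumour libraries were fitted without NL, 5 genes were called lower, Phgdh (SE 0.12, limma adjusted p = 0.000245), Psat1 (limma adjusted p = 0.00379) and Asns (limma adjusted p = 0.000969) among them, against 12.3% of all genes. Psat1 was at -1.12 (95% interval with all libraries -2.75 to 0.52) and Asns at -1.29 (-2.75 to 0.18). With all libraries, the limma adjusted p was 0.611 for Psat1, 0.413 for Asns and 0.832 for Aldh18a1.

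Mthfd2 was at 0.84 in c-MYC/FOXO1AAA versus c-MYC (95% interval -0.23 to 1.92, limma adjusted p = 0.695), and at a limma adjusted p of 0.267 in the fit without NL. The other genes lay close together in both tumours: Shmt2 at -0.31 (-0.58 to -0.04), Mthfd1l at -0.26 (-1.02 to 0.49) and Pycr1 at -0.11 (-0.87 to 0.65), each with a limma adjusted p of 1. The lower ends of these intervals lie above the values of Psph and Shmt1. Markers of other cells moved between the tumours: the summed FPKM of 10 stellate and fibroblast markers was 17.6 to 55.8 in c-MYC and 481 to 505 in c-MYC/FOXO1AAA, with 6 of 10 called higher and 0 lower. Of the 11 hepatocyte markers, 9 were lower and 0 higher. Of 10 periportal hepatocyte markers, 2 were higher and 6 lower, with a median log2 fold change of -1.61. Of 10 pericentral ones, 5 were higher and 0 lower (0 also at an unadjusted limma p below 0.05), with a median of 1.68. The pericentral sums overlapped, at 95.2 to 133 FPKM in c-MYC and 125 to 171 in c-MYC/FOXO1AAA, against 9940 to 12200 in NL. The periportal sums were 1260 to 2230, 514 to 974 and 44700 to 49900 FPKM in the same groups. Against NL, 9 of 10 pericentral and 10 of 10 periportal markers were lower in c-MYC/FOXO1AAA. The 10 proliferation markers summed to 429 to 497 FPKM in c-MYC and 314 to 366 in c-MYC/FOXO1AAA, with 0 of 10 called and 0 at an unadjusted limma p below 0.05. Kupffer cell and macrophage markers summed to 234 to 307 FPKM in c-MYC and 108 to 186 in c-MYC/FOXO1AAA, and endothelial markers to 16.4 to 27.5 and 37.9 to 51.9. Cholangiocyte and progenitor markers summed to 106 to 150 and 36.5 to 64.2. The 5 lymphocyte markers in the table summed to no more than 3.55 in c-MYC and no less than 8.63 in c-MYC/FOXO1AAA. Of 10 Kupffer cell and macrophage markers 1 was called higher and 2 lower, and of 9 tested endothelial ones 1 higher and 0 lower. Of 7 tested cholangiocyte and progenitor markers, 2 were higher and 3 lower. Of 3 tested lymphocyte markers, 1 was higher and 1 lower, with a median log2 fold change of -1.53. The part of these markers in the values of the 10 genes was not tested.

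**Figure D2:**
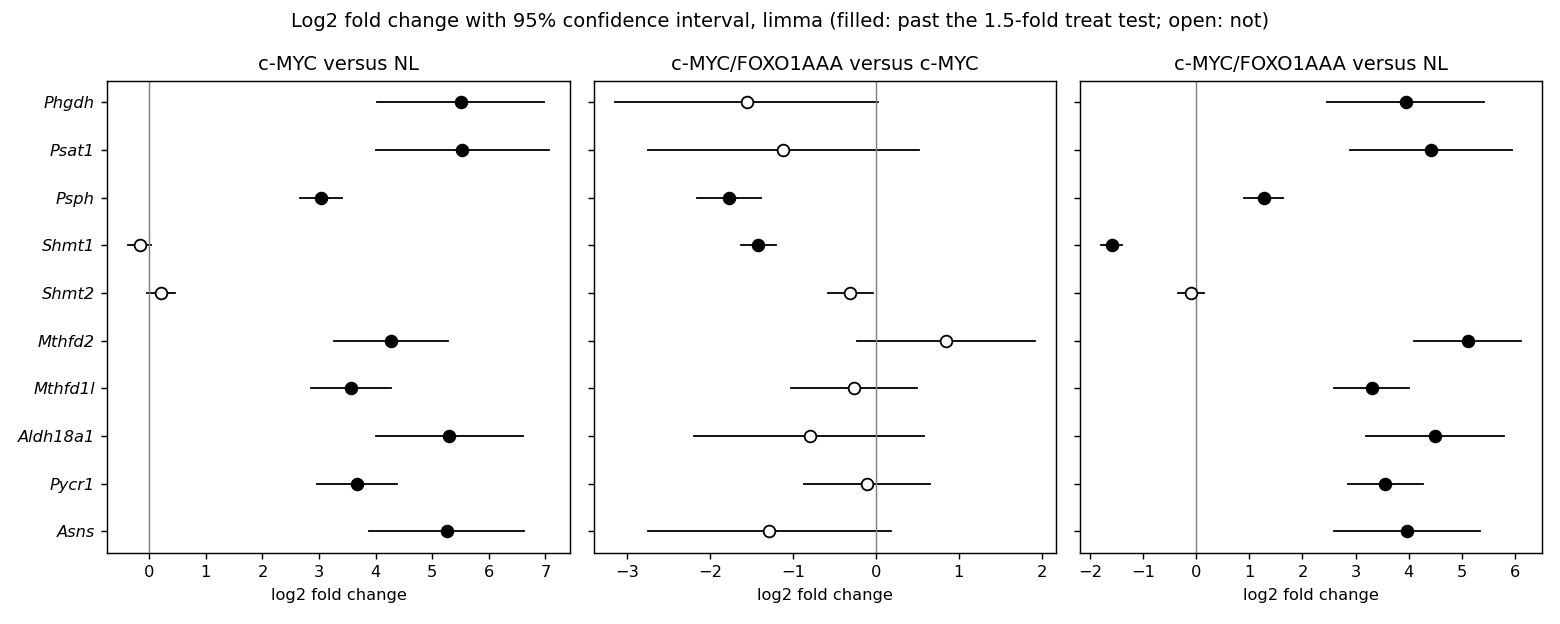
Log2 fold change of each gene with its 95% confidence interval from limma in the 3 comparisons, filled where the gene passed the test for a change above 1.5-fold and open where it did not. In the middle panel the intervals of Phgdh, Psat1, Aldh18a1 and Asns are wide and reach 0, while those of Psph and Shmt1 are narrow and lie below 0.

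The NL libraries differed from each other by far more in most of these genes than in most genes tested. The median SD of log2 FPKM within NL was 0.87 over the 10 genes and 0.19 over all genes tested. It was 0.31 over the genes called higher in c-MYC than in NL. Psph, with an SD of 0.24, and Shmt1 and Shmt2, with 0.10 each, did not share the wide spread. The highest NL library exceeded the lowest 12.6-fold for Phgdh, 14.0-fold for Psat1, 10.8-fold for Asns and 8.54-fold for Aldh18a1, but 1.18-fold for Shmt1 and 1.17-fold for Shmt2. For Phgdh, Psat1, Asns and Aldh18a1 the lowest library was NL 2, with 45, 23, 15 and 14 recovered reads. Phgdh, Psat1, Psph, Aldh18a1 and Asns fell in the same order, NL 1 above NL 3 above NL 4 above NL 2, as did 11% of all genes tested and 25.0% of the 3435 genes called higher in c-MYC than in NL. As a share of the c-MYC mean, Phgdh stood at 6.96%, 0.553%, 3.72% and 1.65% in NL 1 to 4. Asns stood at 7.81%, 0.725%, 4.00% and 2.04%. The shares of these genes thus nearly coincide library by library, and Psat1 matched them at 6.72%, 0.482%, 3.67% and 1.81%.

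H19, a fetal liver transcript that is no member of these pathways, was at 7.84%, 0.494%, 3.73% and 1.84% of its c-MYC mean in NL 1 to 4. Over these same libraries H19 was among the nearest 3 of all genes tested to each of Phgdh, Psat1 and Asns. Its match to them here is therefore no separate result. Over the 3435 genes called higher in c-MYC, the median share was 34.0%, 25.0%, 28.7% and 27.9%. The 10 proliferation markers summed to 37.3, 5.45, 15.5 and 11.5 FPKM in NL 1 to 4, the same order again, whereas the hepatocyte markers stayed within the range given above. The gap between NL 1 and NL 2, as a share of the c-MYC mean, ran from 3.89% to 10.9% over the 8 genes that rose. The part of the proliferation markers and of H19 in these values was not tested. Without NL 2, the lowest library, the log2 fold change in c-MYC over NL was smaller, at 4.84 for Phgdh (limma adjusted p = 1.26e-05), 4.81 for Psat1 (limma adjusted p = 7.26e-06) and 4.64 for Asns (limma adjusted p = 1.08e-05). In c-MYC/FOXO1AAA over NL it was then 3.27, 3.70 and 3.35, and all 3 genes still passed. An alternative chosen after seeing the data left out NL 1 and NL 3, the NL libraries with the most Phgdh and Psat1. That choice fixed a larger rise of both genes in advance, so a p from this fit is no separate result. Phgdh was then at 6.71 (SE 0.38, limma adjusted p = 3.19e-06) in c-MYC over NL and Psat1 at 6.74 (SE 0.45, limma adjusted p = 7.49e-06). The same 8 genes rose, against 24.3% of all genes. Between the tumours the log2 difference of Phgdh stayed at -1.56 and only its SE was smaller (SE 0.34, limma adjusted p = 0.0383). Of all genes, 12.5% were called lower.

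**Figure D3:**
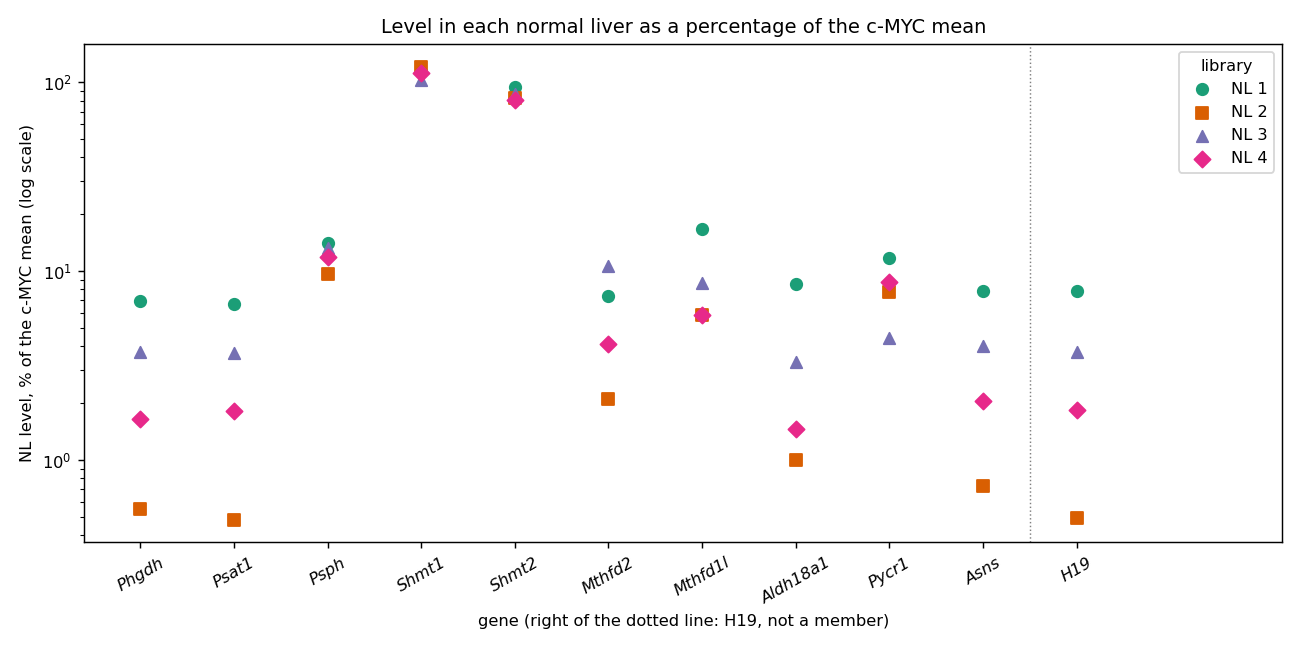
Level of each gene in the 4 NL libraries as a percentage of the c-MYC mean (log scale), with a marker for each library and H19 to the right of the dotted line. Phgdh, Psat1, Asns and H19 show the same ladder from NL 1 down to NL 2, while Shmt1 and Shmt2 sit near 100. H19 was among the genes nearest to Phgdh, Psat1 and Asns over these same libraries.

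Ratios of paired enzymes within a library do not depend on how libraries are scaled, but they still hold the prior count, which matters where reads are few. Over the 12 comparisons of ratios, exact permutation tests (2-sided) could not go below p = 0.0571 with 4 libraries against 3 or p = 0.1 with 3 against 3, so that none could pass 0.05. The ratio of mitochondrial Shmt2 to cytosolic Shmt1 was 1.45, 1.2, 1.49 and 1.26 in NL 1 to 4, 1.59, 1.66 and 2.03 in c-MYC and 3.66, 4.15 and 3.55 in c-MYC/FOXO1AAA. The 3 groups did not overlap. Its log2 differed by 1.11 between the tumours (exact permutation p = 0.1, adjusted 0.15) and by 0.38 between c-MYC and NL (exact permutation p = 0.0571, adjusted 0.114).

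Mthfd2l encodes a close relative of Mthfd2 that does the same step in adult tissues. It was at 1.48, 2.02, 1.57 and 1.60 FPKM in NL 1 to 4, at 0.206, 0.202 and 0.332 FPKM in c-MYC, where 6, 6 and 11 reads were recovered, and at 7.29, 6.97 and 6.64 FPKM in c-MYC/FOXO1AAA. Mthfd2l thus fell in c-MYC below NL (log2 fold change -2.79, SE 0.24, limma adjusted p = 8.39e-06) and rose in c-MYC/FOXO1AAA over c-MYC (4.86, SE 0.25, limma adjusted p = 2.63e-07). The ratio of Mthfd2 to Mthfd2l was 0.977, 0.204, 1.32 and 0.502 in NL 1 to 4, 70.1, 107 and 68.2 in c-MYC and 4.87, 5.35 and 4.68 in c-MYC/FOXO1AAA. With so few Mthfd2l reads in c-MYC, the prior count lowers the ratios there. The groups did not overlap, with an exact permutation p of 0.0571 in c-MYC versus NL and 0.1 between the tumours, the smallest possible values.

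Sds encodes serine dehydratase, which breaks serine down. It was at 153 ± 28.7 FPKM in NL, 14.1 ± 6.84 in c-MYC and 2.23 ± 1.89 in c-MYC/FOXO1AAA (SD, n = 4, 3 and 3), so that Sds exceeded Phgdh in all NL libraries and Phgdh exceeded Sds in all tumours. The log2 of the Phgdh to Sds ratio was -3.88 in NL, 5.15 in c-MYC and 6.46 in c-MYC/FOXO1AAA, and the tumour groups overlapped (exact permutation p = 0.3).

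**Figure D4:**
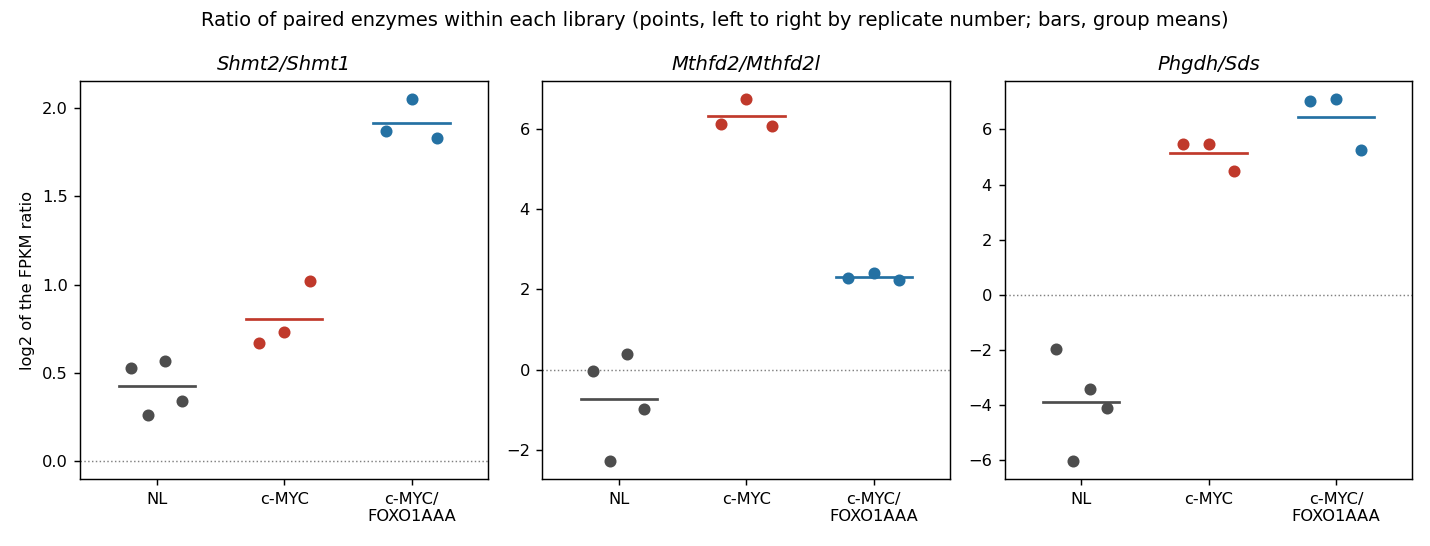
Log2 ratio of paired enzymes in every library, with NL in grey, c-MYC in red, c-MYC/FOXO1AAA in blue, bars at the group means and a dotted line at equal levels. Shmt2 to Shmt1 is highest in c-MYC/FOXO1AAA, Mthfd2 to Mthfd2l is highest in c-MYC, and Phgdh to Sds lies below 0 in NL and above 0 in both tumours.

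The wider pathways were counted in lists of further genes, none of which holds the 10 enzymes. A list on the breakdown and use of serine and glycine held 21 tested genes. Not all of them consume glycine, as Agxt forms it, so the counts do not measure breakdown and use alone. In c-MYC versus NL, 0 rose (1 at an unadjusted limma p below 0.05) and 11 fell. Between the tumours 2 rose and 15 fell, and in c-MYC/FOXO1AAA versus NL 1 rose and 17 fell. Median log2 fold changes of the 21 genes were -1.51, -1.91 and -4.18. Between the tumours Gldc, the decarboxylase of the glycine cleavage system, fell by 5.06 (SE 0.73, limma adjusted p = 0.00045) from 115 to 6.28 FPKM, and Glyctk, which phosphorylates glycerate, fell by 3.94 (SE 0.19, limma adjusted p = 1.65e-07), both on the log2 scale. Gatm, which makes the creatine precursor from glycine, rose by 4.92 (SE 0.17, limma adjusted p = 2.6e-08). In c-MYC versus NL, Agxt, an aminotransferase that forms glycine, fell by 5.30 (SE 0.19, limma adjusted p = 7.2e-09) and Gnmt, which methylates glycine, fell from 2040 FPKM in NL to 108 in c-MYC (limma adjusted p = 4.53e-07). The largest fall was that of Glyat, which joins glycine to acyl groups, from 117 FPKM in NL to 0.241 in c-MYC (log2 fold change -9.36, SE 0.50, limma adjusted p = 1.24e-07), and Glyat rose by 3.28 between the tumours (SE 0.53, limma adjusted p = 0.00143). With the same FPKM total in every library, 6 rose and 9 fell in c-MYC versus NL.

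Of 18 tested genes of the folate cycle, 7 rose and 6 fell in c-MYC versus NL, 2 rose and 5 fell between the tumours, and 8 rose and 8 fell in c-MYC/FOXO1AAA versus NL, with medians of 0.16, -0.24 and -0.10. Those that rose in c-MYC included the folate carrier Slc19a1 (log2 fold change 3.10, SE 0.21, limma adjusted p = 1.13e-06) and Atic of purine synthesis (2.38, SE 0.15, limma adjusted p = 1.32e-06). Aldh1l1, which burns the folate-bound carbon to CO2, fell from 475 FPKM in NL to 5.02 in c-MYC and 4.61 in c-MYC/FOXO1AAA. Ftcd, which draws one-carbon units from histidine, fell by 3.90 between the tumours (SE 0.34, limma adjusted p = 1.58e-05). Scaled to the same FPKM total, 10 rose and 2 fell in c-MYC versus NL, and 9 rose and 4 fell in c-MYC/FOXO1AAA versus NL.

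Of 16 genes of the methionine cycle and transsulfuration, 5 rose and 8 fell in c-MYC versus NL, 1 rose and 6 fell between the tumours, and 5 rose and 9 fell in c-MYC/FOXO1AAA versus NL, with medians of -0.97, -0.40 and -2.34. The spermidine synthase gene Srm rose by 2.48 in c-MYC over NL (SE 0.16, limma adjusted p = 1.32e-06), and Bhmt, which remethylates homocysteine, fell by 4.62 (SE 0.35, limma adjusted p = 2.76e-06). Nnmt, which methylates nicotinamide, fell by 6.17 in c-MYC below NL (SE 0.47, limma adjusted p = 2.18e-06) and rose by 3.59 between the tumours (SE 0.51, limma adjusted p = 0.000498). With the same FPKM total, 6 rose and 6 fell in c-MYC versus NL. Of 21 genes that handle proline, ornithine, glutamate and aspartate, 4 rose and 13 fell in c-MYC versus NL, 2 rose and 9 fell between the tumours, and 3 rose and 15 fell in c-MYC/FOXO1AAA versus NL, with medians of -1.32, -0.61 and -2.94. In c-MYC below NL, Gpt, an alanine aminotransferase, fell by 5.78 (SE 0.23, limma adjusted p = 1.91e-08) and Prodh, which starts the breakdown of proline, by 3.48 (SE 0.16, limma adjusted p = 4.92e-08). Prodh2, which breaks down hydroxyproline, fell by 5.22 between the tumours (SE 0.67, limma adjusted p = 0.000181). Ass1, which spends aspartate in the urea cycle, fell by 4.48 between the tumours (SE 0.40, limma adjusted p = 1.55e-05), and P4ha1, which hydroxylates proline in collagen, rose by 1.96 (SE 0.24, limma adjusted p = 0.00051). Of these 21, 6 rose and 8 fell in c-MYC versus NL with the same FPKM total.

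Of 35 tested genes of the amino acid response (the ATF4 pathway, not only its targets), 11 rose and 6 fell in c-MYC versus NL. Between the tumours 9 rose and 1 fell, and in c-MYC/FOXO1AAA versus NL 13 rose and 2 fell, with medians of 0.42, 0.15 and 0.66 in this order. Atf4 itself was at 71.6, 60.5 and 97.2 FPKM in NL, c-MYC and c-MYC/FOXO1AAA and passed in none of these comparisons. In c-MYC over NL the amino acid carriers Slc7a1 (log2 fold change 5.56, SE 0.64, limma adjusted p = 4.41e-05) and Slc7a5 (4.02, SE 0.33, limma adjusted p = 4.6e-06) rose. Between the tumours Nupr1, a stress-induced chromatin protein, rose by 5.33 (SE 0.20, limma adjusted p = 3.4e-08) and Stc2, a secreted stress protein, rose by 4.82 (SE 0.84, limma adjusted p = 0.00147). Ddit3, which encodes the stress factor CHOP, rose by 0.92 between the tumours (SE 0.12, limma adjusted p = 0.0293) after falling by 1.2 in c-MYC below NL (SE 0.11, limma adjusted p = 0.000305). Fgf21, a liver hormone, fell by 3.80 in c-MYC below NL (SE 0.60, limma adjusted p = 0.000479). Its mean was 2.2 FPKM in NL, and all 3 c-MYC libraries sat at 0.125, a floor that the prior count sets, as it does the size of this fall. Eif2ak3, the kinase PERK, was the gene that fell between the tumours (log2 fold change -1.28, SE 0.19, limma adjusted p = 0.00897). The 9 of 35 genes higher between the tumours stand beside 15.9% of all genes, and the median of 0.15 beside 0.03. The 9 became 5 with a mean of at least 5 FPKM or a threshold of 2-fold. With the same FPKM total in every library, 20 rose and 4 fell in c-MYC versus NL and 27 rose and 0 fell in c-MYC/FOXO1AAA versus NL.

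Over the 10 libraries, Phgdh, Psat1 and Asns followed each other closely, with a Pearson r of log2 FPKM of 0.996 to 0.999. The points share the 3 groups and the NL order, and no p is given. H19 was among the nearest 3 of all genes tested for each of Phgdh, Psat1 and Asns (r = 0.997, 0.999 and 0.998). Nearest to Aldh18a1 were Parpbp, Zwilch and Ttk (r = 0.998 each), of which Zwilch and Ttk act at the kinetochore in mitosis. Nearest to Mthfd2 were Rrp15, Gtf2e2 and Mak16 (0.995 each), of which Rrp15 and Mak16 serve in ribosome assembly, and nearest to Mthfd1l were Nup205, Tcof1 and Ilf2 (0.997 to 0.998). Psph lay nearest to Tpd52 (0.993), Shmt1 to Qpct (0.992) and Pycr1 to Rnf126 (0.993), while Shmt2 had no close neighbour, its highest r being 0.87 with Scaf4. The r of Shmt1 was 0.466 with Shmt2 and negative with the other 8 genes, from -0.099 with Psph to -0.712 with Mthfd2.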

How the data were processed

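RNA-seq of mouse liver was examined in 10 libraries, grouped by the titles in the labels. The deposited table holds log2 FPKM, which the authors computed from reads counted per gene. The submitters' processing notes name GRCm38 and FastQC 0.11.7, while the aligner and counting tool are not given in the sources used here. Libraries were made by polyA capture or rRNA removal, per the labels. Of 17069 rows, 372 without a symbol were left out. Dividing by transcript lengths (GENCODE M21) gave whole reads, within 0.02, for 97.77% of 16623 matched genes, after removal of a prior count averaging 2 reads. The authors tested counts with edgeR; because the deposited unit is a log2 value, limma 3.58.1 (treat, trend and robust, R 4.3.3, statmod 1.5.0) was run here on all 10 libraries, with a filter of 1 FPKM in 3 libraries and no further pseudocount. The script was tested on simulated data. Alternatives changed the scaling, pseudocount, filter, fold threshold, libraries and block. The 10 genes and all lists were chosen with earlier results of these data known. All 10 genes are named, and from each list some of the genes that the rule gives (the 2 largest called changes in each direction and comparison, and set regulators). Pathway and cell marker lists were counted in the same fit. Some listed genes and 1 pair of enzymes, which enters the adjustment over 12 ratio comparisons, are not reported here. Each sequence was taken from RefSeq windows.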

Additional observations from a re-analysis of the deposited data

How the results depend on the processing

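Over the 69 counts of members called (3 comparisons, 23 alternatives each), all but 1 stayed within 1.5 times the reported count, the exception being 5 between the tumours in the fit without NL. It was 3 between the tumours with NL 1 and NL 3 left out, an alternative chosen after seeing the data. The number of genes called moved to 2280 between the tumours and 5211 in c-MYC/FOXO1AAA versus NL with a mean of at least 5 FPKM, where 8919 genes were tested and Pycr1 was not, and to 10432 in c-MYC versus NL and 7688 between the tumours with no fold threshold. Leaving out 1 library at a time gave 6385 to 6794, 3593 to 4022 and 7681 to 8161 genes called, with 8, 2 and 9 members.

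Signs turned for Shmt1 in c-MYC versus NL (0.76 with the same FPKM total, 0.30 with quantile normalization) and for Shmt2 in c-MYC/FOXO1AAA versus NL (1.0 and 0.81). They also turned for Pycr1 between the tumours (0.06 with the same FPKM total, 0.01 without c-MYC 3 or without c-MYC/FOXO1AAA 3, and -0.33 to 0.06 over all alternatives). The same FPKM total also took the fall of Shmt1 in c-MYC/FOXO1AAA versus NL from the test (limma adjusted p = 0.924) and a threshold of 2-fold took the rise of Psph in the same comparison (limma adjusted p = 0.145). It raised the share of higher calls from 51.0% to 78.8% in c-MYC versus NL and from 54.0% to 79.5% in c-MYC/FOXO1AAA versus NL, and a mean of at least 5 FPKM lowered it from 55.5% to 43.4% between the tumours. The cause of these moves was not tested. Counts over the pathway lists stayed within 1.5 times in 530 of 552 cases.

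Samples with the same replicate number did not deviate together (correlations of -0.058 to 0.027). With replicate number as a block, 6407, 3852 and 7810 genes and the same counts of 8, 2 and 9 members were called, and the block changed no call of a member. Below about 20 recovered reads, counting error alone limits the fold change. That holds for Pycr1 in NL and, in NL 2, for Mthfd2 (7 reads), Aldh18a1 (14) and Asns (15), with Psat1 close at 23.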

Other observations

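Of 14 genes of glycolysis down to 3-phosphoglycerate and its next step, 5 rose and 4 fell in c-MYC versus NL, 1 rose and 3 fell between the tumours, and 7 rose and 3 fell in c-MYC/FOXO1AAA versus NL. With the same FPKM total in every library, 10 rose and 4 fell in c-MYC versus NL, and 11 rose and 3 fell in c-MYC/FOXO1AAA versus NL. In c-MYC over NL, Hk2, a hexokinase of growing cells, rose by 4.70 on the log2 scale (SE 0.53, limma adjusted p = 3.83e-05). Pfkm, a phosphofructokinase, was at 7.81, 0.59 and 9.83 FPKM in NL, c-MYC and c-MYC/FOXO1AAA, falling by 3.74 in c-MYC below NL (SE 0.17, limma adjusted p = 4.06e-08) and rising by 4.07 between the tumours (SE 0.18, limma adjusted p = 9.95e-08).

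Of 6 carriers of serine, glycine and related molecules into mitochondria, 1 rose and 2 fell in c-MYC versus NL, 1 rose and 2 fell between the tumours, and 1 rose and 3 fell in c-MYC/FOXO1AAA versus NL. With the same FPKM total the direction turned, as 2 rose and 0 fell in c-MYC versus NL and 2 rose and 1 fell in c-MYC/FOXO1AAA versus NL. Sfxn3 was at 0.48, 0.435 and 6.02 FPKM in NL, c-MYC and c-MYC/FOXO1AAA and rose by 3.81 between the tumours (SE 0.25, limma adjusted p = 1.71e-06), while Sfxn2 fell by 1.82 (SE 0.17, limma adjusted p = 0.000103). Of 12 tested regulators, 2 rose and 3 fell in c-MYC versus NL, 3 rose and 1 fell between the tumours, and 3 rose and 2 fell in c-MYC/FOXO1AAA versus NL, where 8 rose and 2 fell with the same FPKM total. The count between the tumours dropped from 4 to 2 when any c-MYC/FOXO1AAA library was left out. Pkm, a pyruvate kinase gene whose forms were not separated here, was at 15.8, 229 and 696 FPKM in NL, c-MYC and c-MYC/FOXO1AAA. Pklr, the pyruvate kinase gene of liver, was at 114, 17.2 and 1.98 FPKM in the same groups. The mouse Myc gene was at 11.2 ± 8.17 FPKM in NL (SD, n = 4), 0.771 ± 0.254 in c-MYC (n = 3) and 0.983 ± 0.118 in c-MYC/FOXO1AAA (n = 3), and reads of the injected c-MYC were not separated here.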
